A study of Homo sapiens with 2 samples.

Results

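The genes described here form the vitamin D receptor axis: 3 cytochrome P450 enzymes that activate or break down vitamin D (CYP2R1, CYP27B1 and CYP24A1), the vitamin D receptor VDR, and the retinoid X receptors RXRA and RXRB that pair with it. The set was chosen by the large decrease of CYP24A1 in these arrays, and the other 5 genes were added for their place in the pathway. Their values are therefore a description, and no test was run on them. A probe set belonged to a gene when that gene was its only symbol in the annotation of the array. The 6 genes held 87 of the 261273 probe sets with a single gene, and they were 6 of 16241 genes with at least 3 such probe sets.

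A pair of lines was compared, both untreated and grown in McCoy's medium with fetal bovine serum. HCT116-WT is the human colorectal cancer line HCT116. HCT116-DKO derives from it as a single line, labelled DNMT1-/- and DNMT3b-/-, so that it lacks intact genes for DNMT1, which copies DNA methylation onto new strands, and for DNMT3B, which sets new methylation. With 1 array for each line there is neither a replicate error nor a p-value for any value, and a difference between the cell lines cannot be told apart from a difference between 2 cultures or 2 arrays. Fewer cells with a transcript and less of it per cell cannot be told apart either.

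Vitamin D becomes a hormone in a pair of hydroxylation steps. CYP2R1 makes the circulating 25-hydroxy form, mostly in liver, and CYP27B1 makes the active hormone calcitriol, mostly in kidney but also in epithelial cells. Calcitriol binds VDR, which pairs with an RXR protein on DNA. CYP24A1 breaks down both the hormone and its precursor, and it is among the genes that VDR induces most strongly, so that it closes a feedback loop. In the gut the hormone drives uptake of calcium.

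Of the 6 genes, CYP24A1 alone changed, and it fell in HCT116-DKO. Levels are log2 signals, so a difference of 1 is a doubling, and differences are always HCT116-DKO minus HCT116-WT. Its level went from 12.60 to 9.70, which is 7.50-fold lower, or -2.91 with an SD of 0.38 over its 17 probe sets. VDR was at 8.06 and 7.63, and CYP27B1, CYP2R1, RXRA and RXRB differed by -0.28, 0.09, 0.10 and 0.01. All 6 genes lay above background in both arrays, where background was the 95th percentile of olfactory receptor genes (7.08 for HCT116-WT, 7.30 for HCT116-DKO). The rule of size for a change asked that a gene differ by at least 1, with at least 75% of its probe sets in that direction and a level above background where it was higher. By this rule 1 of the 6 members fell, against a background of 0.536% of all genes that fell, 2.66% that rose and 3.2% that changed at all. Since the set was chosen on this decrease, nothing is read from that count.

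The decrease of CYP24A1 was seen along its whole series of probe sets. All 17 were lower in HCT116-DKO, and each differed by more than 1. The smallest difference, -1.82, belonged to the first probe set in the order of IDs, with levels of 4.37 and 2.55, below background in both arrays. The other 16 lay above background in both arrays and differed by -2.20 to -3.21, that is, 4.59-fold to 9.23-fold. Their levels ran from 11.20 to 13.51 in HCT116-WT and from 8.40 to 11.31 in HCT116-DKO. These ranges meet only at their ends, and within each probe set the HCT116-DKO value was the lower. In HCT116-WT the probe set in place 10 was the brightest, at 13.51, and it was also the brightest in HCT116-DKO, at 11.31. Probe sets in places 8 and 10 had the smallest differences of these 16, -2.27 and -2.20, and the one in place 2 had the largest. With each probe set left out in turn, the fold ranged from 7.37 to 7.72. At 9.70, CYP24A1 still lay above background (7.30) in HCT116-DKO.

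**Figure D1:**
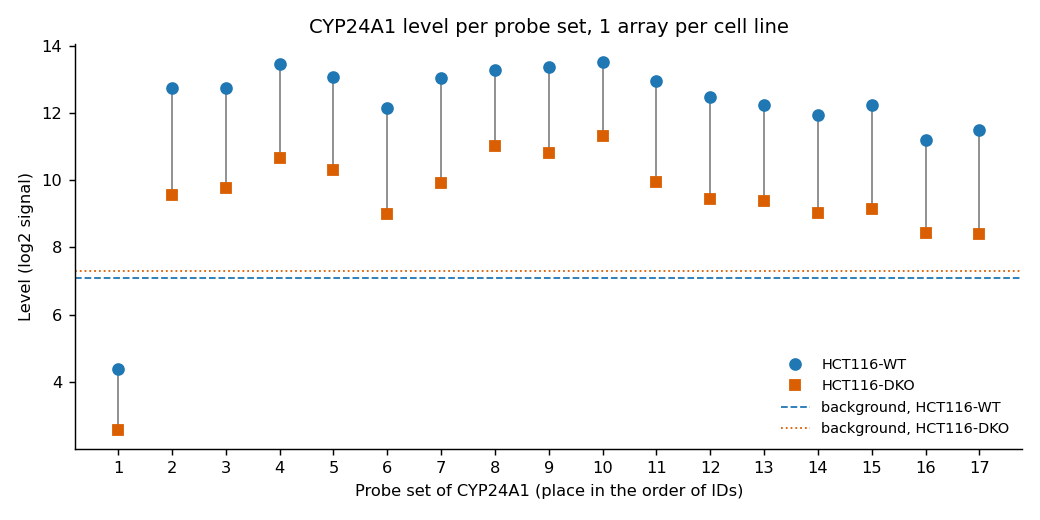
Level (log2 signal) of the 17 probe sets of CYP24A1 in HCT116-WT (circles) and HCT116-DKO (squares), in the order of probe set IDs, with 1 array per line. Vertical lines join the values of a probe set and horizontal lines mark background at 7.08 and 7.30. Every probe set is lower in HCT116-DKO, and only the one in place 1 lies below background.

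Among all genes above background in both arrays, few fell as far. The set was chosen on this decrease, so the place of CYP24A1 is a description only, and genes that rose were not ranked. Of 10777 such genes 58 fell, and CYP24A1 had the second largest decrease, after KITLG, the ligand of the receptor KIT. The genes with the most similar difference over these 2 arrays were the adhesion receptor ADGRF1 (-2.82), the export pump ABCC2 (-2.25), PRKACB, a catalytic subunit of protein kinase A (-2.10), PHLDB2 (-2.07) and the retinoic acid binding protein CRABP2 (-2.04). With 2 arrays this likeness is only a matter of similar size. The SD over probe sets of CYP24A1, 0.38, compares with a median of 0.299 over the 10777 genes.

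VDR, the receptor itself, was somewhat lower in HCT116-DKO but did not count as changed. Its level was 8.06 and 7.63, a difference of -0.43 (SD over 12 probe sets 0.42), or 1.35-fold. The 10 probe sets above background in at least 1 array were all lower in HCT116-DKO, by -0.08 to -1.19. The remaining pair, in places 10 and 11, differed by 0.01 and 0.48 and lay below background in both arrays. The probe set in place 5 had the largest difference, from 8.16 to 6.97, and was the only one past a size of 1. The brightest, in place 8, was at 9.02 and 8.94. In HCT116-DKO 7 of 12 VDR probe sets lay above background, against 10 in HCT116-WT, so the receptor was measured close to background there.

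The activating enzymes stayed near their HCT116-WT levels. CYP27B1, which makes calcitriol, was at 8.52 and 8.24, a difference of -0.28 (SD over 12 probe sets 0.37). Of its 10 probe sets above background, 8 were lower and 2 higher in HCT116-DKO. The probe set in place 5 stood apart, from 8.96 to 8.05 (-0.91), while the rest of the 10 lay between -0.38 and 0.28. CYP2R1, which makes the 25-hydroxy precursor, was at 9.32 and 9.42, a difference of 0.09 (SD over 14 probe sets 0.23). Of its 11 probe sets above background in at least 1 array, 6 were higher and 5 lower, with differences of -0.22 to 0.26. The sign of the CYP2R1 difference is thus not settled, and it was -0.09 when each array's level was the median over probe sets.

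The retinoid X receptors also had near-equal levels in both lines. RXRA was at 8.80 and 8.90 (difference 0.10, SD over 14 probe sets 0.29), and RXRB was at 9.45 and 9.46 (difference 0.01, SD over 18 probe sets 0.27). In HCT116-WT, background was exceeded by all 14 probe sets of RXRA and all 18 of RXRB. For RXRB, 9 were higher and 9 lower, with extremes of -0.48 in place 15 and 0.60 in place 11. For RXRA, the 4 probe sets in places 1 to 4 were all lower in HCT116-DKO, by -0.05 to -0.29, and the 10 in places 5 to 14 were all higher, by 0.04 to 0.49. This split was noticed after the values were seen. The medians of both stretches were -0.23 and 0.39, and no probe set differed by as much as 1. After median centring, which lowers each difference by 0.09, the first 4 were still lower but only 7 of the other 10 were higher, and after quantile normalization 9 of the 10 were.

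**Figure D2:**
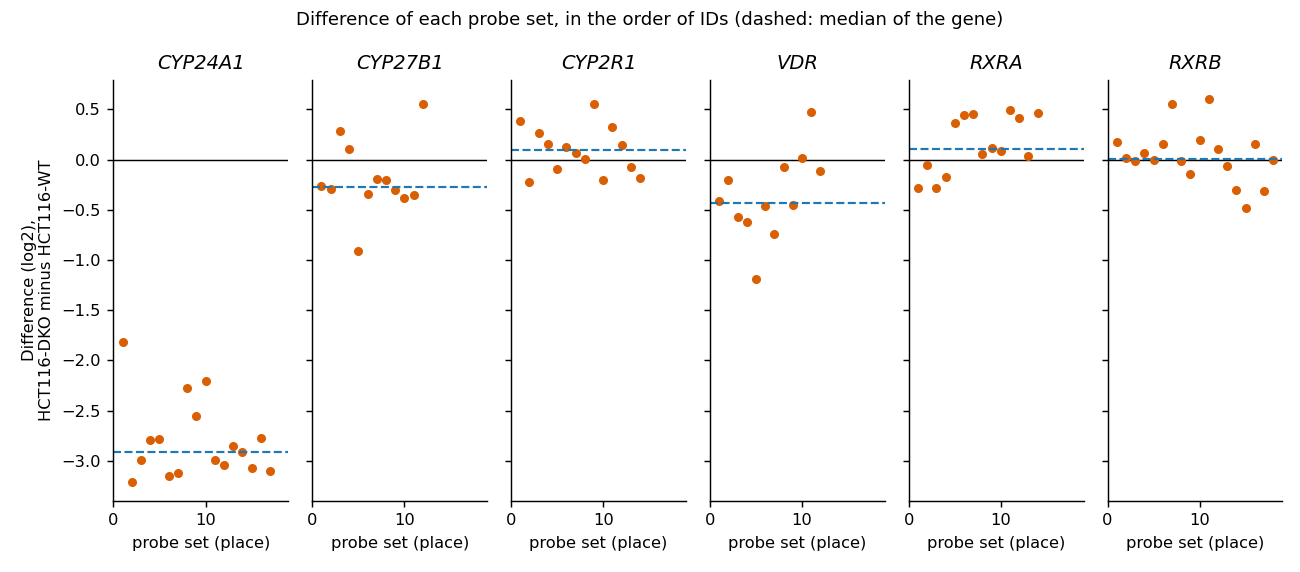
Difference (log2, HCT116-DKO minus HCT116-WT) of every probe set of the 6 genes, in the order of IDs within each gene; the dashed line is the median of the gene and the solid line is 0. The 17 points of CYP24A1 lie between -1.82 and -3.21, while those of the other 5 genes lie between -1.19 and 0.60.

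RXRA has more than a single transcription start in RefSeq, and the windows around both are shown because the levels along this gene were uneven and the study concerns CpG methylation. Each window runs from 250 bases before a start to 50 after it, on the plus strand of GRCh38.p14, 5′ to 3′, and capitals mark every CpG. The upstream start, chr9:134326205-134326504, lies in a window with 65 CpGs. The downstream start, chr9:134379045-134379344, has 8 in its window. The positions of the array's probe sets were not used here, so the stretches of RXRA probe sets cannot be assigned to either start.

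RXRA upstream start: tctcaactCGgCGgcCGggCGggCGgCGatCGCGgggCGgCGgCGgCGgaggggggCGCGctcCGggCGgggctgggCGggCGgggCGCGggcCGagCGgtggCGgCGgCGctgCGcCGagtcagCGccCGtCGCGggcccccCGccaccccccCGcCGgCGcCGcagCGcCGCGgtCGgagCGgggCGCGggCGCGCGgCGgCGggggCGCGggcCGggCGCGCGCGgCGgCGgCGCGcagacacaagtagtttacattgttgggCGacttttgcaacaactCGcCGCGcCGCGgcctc
RXRA downstream start: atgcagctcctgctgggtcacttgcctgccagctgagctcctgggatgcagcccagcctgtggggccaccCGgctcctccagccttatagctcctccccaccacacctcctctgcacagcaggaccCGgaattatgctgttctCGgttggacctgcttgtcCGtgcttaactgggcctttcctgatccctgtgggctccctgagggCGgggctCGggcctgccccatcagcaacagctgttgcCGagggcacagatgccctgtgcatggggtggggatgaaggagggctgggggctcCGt

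RefSeq promoter windows were found for 3 of the 6 genes: RXRA, RXRB and CYP2R1. The median over all 35116 windows of 300 bases was 14 CpGs, and only 11 windows held as many as the 65 of the upstream RXRA start. RXRB had windows with 17 and 26 CpGs, and CYP2R1 had windows with 10, 16 and 28. Single half-sites, each a part of the site that VDR and RXR contact as a pair, were searched on both strands as AGGTCA. The form AGTTCA was searched as well, then the form GGGTCA, and finally the form GGTTCA. At least 1 of these occurred in 38.6% of all windows. They were found in 2 of the 3 CYP2R1 windows and in the downstream RXRA window, but not in the others. A pair of half-sites in the same direction with 3 bases between them was also searched. It occurred in 0.074% of all windows and in none of the 7 windows of the members, some of which overlap. So no full site of these exact letters was found there. At that share a count of 0 is no result about these genes, and CYP24A1 had no window to search. A match is a description of the letters only. No methylation was measured on these arrays.

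Beyond CYP24A1, the enzymes that handle vitamin D kept within a log2 difference of 1. Of 10 genes for synthesis, activation and breakdown, CYP24A1 fell, 0 rose and 9 did not change, where 3.2% of all genes changed. The median difference was -0.01 against 0.02 over all genes. Since CYP24A1 was the reason for the set, nothing is read from that count. The nearest to the threshold was DHCR7, which turns the precursor of vitamin D into cholesterol. It was at 11.85 and 10.86, a difference of -0.995 (SD over 15 probe sets 0.14), with 15 of 15 probe sets lower. DHCR7 counted as fallen after quantile normalization (-1.01) and after median centring (-1.09). POR, the electron donor of CYP2R1, was at 9.96 and 10.30 and higher in all 17 probe sets. FDXR and FDX1, which pass electrons to the mitochondrial enzymes CYP27B1 and CYP24A1, differed by -0.003 and 0.07. CYP27A1 and CYP3A4 were above background in neither array. Of the carriers and uptake proteins, LRP2 and CUBN were measured and were above background in neither array.

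Across the cytochrome P450 family, CYP24A1 was the only gene to change in the main setting. The family was taken by symbol as 52 measured genes, which include the antisense gene CYP1B1-AS1. Of these 1 fell and 0 rose, and 36 were above background in neither array. The 1 gene is 1.92% of the 52, against 3.2% of all genes that changed, so the count is not particular to this family. The other 51 differed by -0.91 to 0.82, with a median of 0.02. The cholesterol enzyme CYP51A1 was at 12.11 and 11.25 (-0.86), CYP2U1 at 8.56 and 9.38 (0.82), and CYP4F11 had the lowest difference of the 51 (-0.91), with levels of 6.93 and 6.02, below background in both arrays. These 3 were named after their values were seen. Of the 7 mitochondrial P450 enzymes, 4 were above background in neither array, among them CYP11A1 (6.55 and 7.10), which makes pregnenolone from cholesterol.

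No listed partner or coregulator of VDR counted as changed in the main setting, where 3.2% of all genes did. In lists this short, a count of 0 is near that share and is no result about these genes. Of 4 genes in the list of VDR and RXR receptors 0 changed, and RXRG was above background in neither array. Of 15 other receptors that pair with RXR, 0 changed, and the median difference was 0.10. The thyroid hormone receptor THRA was at 8.94 and 9.28, and PPARD, a receptor of fatty acids, at 8.70 and 9.15. Of 16 measured coactivators and corepressors 0 changed, with differences of -0.29 to 0.39. KDM1A, which removes methyl groups from histone H3, was at 12.10 and 11.81, and MED1, the Mediator subunit that binds liganded VDR, at 11.26 and 11.03. Of 13 factors that are reported to act on the VDR or CYP24A1 genes, 1 rose (7.69%, against 2.66% of all genes) and 0 fell. The factor that rose was ETS1, a transcription factor of the ETS family, from 6.03 to 7.74, at least 1.58-fold, with 17 of 21 probe sets higher and an SD of 1.38. It no longer counted as changed with the mean over probe sets, with odd-numbered probe sets or with levels below background set to background. The repressors of VDR SNAI1 and SNAI2 differed by -0.16 and -0.21, and ZEB1 by 0.52.

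None of the listed genes known to respond to calcitriol counted as fallen, where 0.536% of all genes fell. CYP24A1, which also responds to calcitriol and did fall, was not in these lists. With 40 listed genes measured, a count of 0 is near that share and is no result about them. A gene below background in HCT116-WT could not count as fallen. Of 9 that handle calcium, 0 changed, and 5 were above background in neither array. The calcium pump ATP2B1 was at 10.52 and 10.27, and the tight junction protein CLDN12 at 11.34 and 11.19. TRPV6, the calcium channel of the gut, was at 7.08 and 7.16, at the edge of background in HCT116-WT and below it in HCT116-DKO. Of 31 other response genes measured, 5 rose and 0 fell, and 26 did not change. Of the 31, 19 were above background in both arrays, 8 in neither and 4 in 1 array. The 5 are 16.1% of the list, against 2.66% of all genes that rose and 3.2% that changed. The list was chosen with earlier results of these data known, so nothing is read from this share. TXNIP, DUSP10 and FBP1 were above background in HCT116-DKO only. The median difference was 0.08, and 18 of 31 (58.1%) were positive, against 53.7% of all genes. The lowest value, -1.17, was that of ORM1, a plasma protein gene above background in neither array (4.78 and 3.61).

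The 5 response genes that rose have diverse roles. TXNIP, an inhibitor of thioredoxin, rose from 6.12 to 11.30, at least 18.7-fold, in all 13 probe sets. The secreted protease KLK6 rose from 7.27 to 9.89 (6.17-fold, SD over probe sets 1.72). DUSP10, a phosphatase of MAP kinases, rose from 6.83 to 8.45, at least 2.58-fold, in all 10 probe sets. THBD, the thrombin receptor thrombomodulin, rose from 7.44 to 8.65 (2.30-fold), and FBP1, an enzyme of gluconeogenesis, rose from 6.28 to 7.41, at least 1.26-fold. FBP1 lost its call in 8 of 13 alternatives, among them the mean over probe sets and both other scalings. Of the genes that did not change, the cell cycle inhibitor CDKN1A was at 8.83 and 8.82 and the antimicrobial peptide gene CAMP at 9.59 and 9.52. DKK1, an inhibitor of Wnt signalling, was at 12.96 and 12.41, and GADD45A at 10.69 and 9.88, with all 7 and all 8 of their probe sets lower in HCT116-DKO. These 4 were named after their values were seen. Most of the response genes were described in other cells, and no hormone is stated as added to either line here. The medium held serum, and its content of vitamin D is not given.

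**Figure D3:**
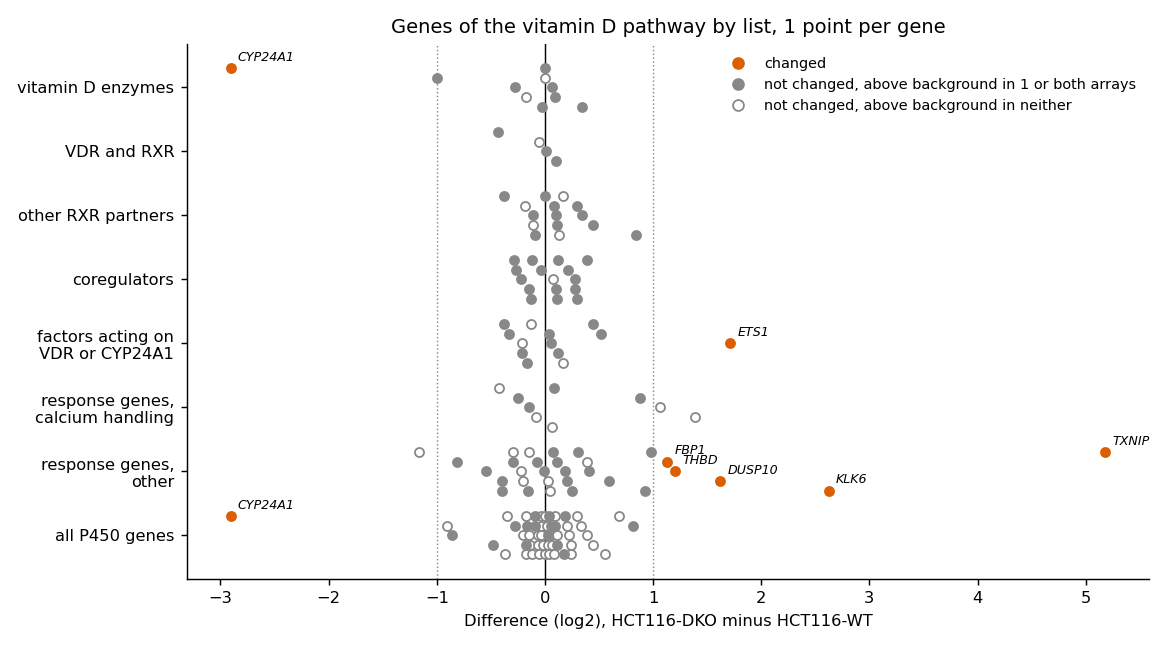
Difference (log2, HCT116-DKO minus HCT116-WT) of each gene in 8 lists, with 1 point per gene; filled orange points changed by the rule of size, grey points did not, and open points lay above background in neither array. Dotted lines mark a difference of 1 in either direction. CYP24A1 at -2.91 is the only gene of these lists that fell, and the 6 that rose are ETS1, TXNIP, KLK6, DUSP10, THBD and FBP1.

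No measured chromosomal neighbour of CYP24A1 counted as fallen, but most of them were too dim to do so. On chromosome 20, the 3 nearest measured genes on either side were TSHZ2, ZNF217 and BCAS1, and PFDN4, DOK5 and CBLN4. Their differences were -0.15, 0.64, -0.38, 0.25, 0.24 and -0.12, and 0 of the 6 changed. ZNF217, a transcription factor gene, was at 9.60 and 10.24 and higher in 14 of 14 probe sets, opposite to CYP24A1. BCAS1, the nearest on the other side from PFDN4, was lower in 11 of 12 probe sets. Only ZNF217 and PFDN4 (7.25 and 7.49) of these 6 lay above background in both arrays. The others lay below it in HCT116-WT and could not count as fallen. PFDN4 was close to background (7.08) in HCT116-WT, so little can be read from these neighbours. Of 36 neighbours of all members, 1 changed (2.78%, against 3.2% of all genes). It was HLA-DPA1, near RXRB on chromosome 6, which encodes a chain of a class II antigen-presenting molecule and rose from 7.67 to 9.47.

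The calls of the 6 genes were the same under 13 other ways to process the values. CYP24A1 ranged from -2.80 to -3.21 and counted as fallen in each, and none of the other 5 genes counted as changed in any. VDR ranged from -0.16 to -0.58, CYP27B1 from -0.19 to -0.37 and RXRA from 0.01 to 0.28. CYP2R1 ranged from -0.09 to 0.26 and RXRB from -0.08 to 0.07, so their directions depended on the setting.

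**Figure D4:**
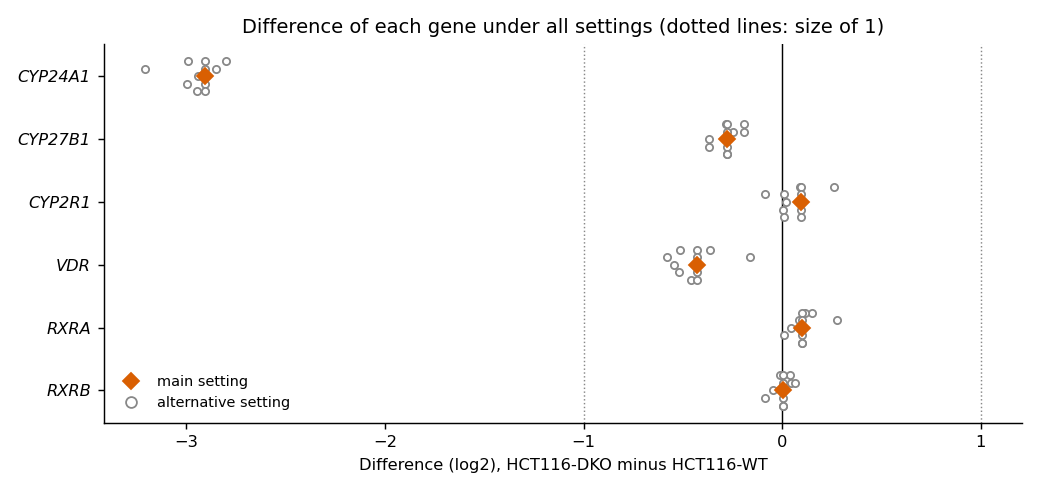
Difference (log2, HCT116-DKO minus HCT116-WT) of the 6 genes under the main setting (diamonds) and 13 alternatives (circles); dotted lines mark a difference of 1 in either direction. CYP24A1 stays between -2.80 and -3.21, and the other 5 genes stay between -0.58 and 0.28.

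The labels of both lines were checked on the same arrays. DNMT1 was at 10.63 and 9.36, with all 50 probe sets lower in HCT116-DKO, and DNMT3B at 8.32 and 6.91, below background in HCT116-DKO. Of 12 epithelial and colon markers measured 8 lay above background in both arrays, with KRT8 at 13.02 and 13.33, while VIL1, LGALS4, CEACAM5 and KRT20 lay above background in neither. CA2 of that list fell, from 10.23 to 8.75. Of the blood markers 0 of 5 lay above background in both arrays, and PTPRC, which marks white blood cells, was at 3.81 and 3.88. Of the endothelial markers 1 of 6 (CLDN5) lay above background in both arrays and of the fibroblast markers 3 of 7, among which COL1A1 was at 8.64 in both. THY1 rose from 6.23 to 7.64. The part of such cells in the values above was not tested.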

How the data were processed

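Total RNA of both lines was hybridized to Affymetrix exon arrays. The values deposited by the authors are log2 signals of exon-level probe sets, and the submitters' processing notes name RMA. Expression Console and, at the exon level, Partek Genomic Suite appear in the paper's methods, but the sources used here do not tie either to these values. An array has no read depth, so precision is limited by the number of arrays, 1 per line.

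Of 287329 probe sets, 9155 with several genes and 16901 with none were left out. Older symbols were updated through RefSeq (GRCh38.p14), after which 99.4% of 16909 were current. Gene levels came from median polish (Python 3.11.15, numpy 2.4.6). Genes of under 3 probe sets were left out. The SD is over probe sets of the same 2 arrays and no replicate error. Where the lower of both levels was not above background, background took its place and the fold is given as a bound. The rule of size was tested on simulated data. The members and lists were chosen with earlier results of these data known. Named were the members, up to 4 changed genes per list (or up to 2 bright ones where none changed), the neighbours of CYP24A1, other neighbours that changed, the 5 genes nearest to CYP24A1 in difference, and the genes of the label check. Other genes, among them FBP1, DHCR7, POR, FDX1, FDXR, SNAI1, SNAI2, ZEB1, TRPV6, ORM1 and the markers, were named outside this rule, after their values were seen. The 13 alternatives changed the summary, scaling, probe sets, threshold or background.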

Additional observations from a re-analysis of the deposited data

How the results depend on the processing

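The calls of the 6 members were the same under all 13 alternatives, with 1 member changed in each, while some list counts moved. No paired analysis was possible because each group had 1 array, and no array could be left out. Scaling shifted all differences alike by about 0.09 under median centring. With quantile normalization or median centring 2 of the genes for vitamin D synthesis and breakdown changed instead of 1, as with odd-numbered probe sets or a log2 threshold of 0.58, and the added gene was DHCR7 each time. The count among factors acting on VDR or CYP24A1 was 0 instead of 1, through ETS1, with the mean over probe sets, with odd-numbered probe sets and with levels below background set to background. Among other RXR partners it was 1 instead of 0 (THRB) with the median over probe sets and with the threshold of 0.58. Among response genes of calcium handling it was 1 instead of 0 with the median over probe sets (SLC34A2), with only bright probe sets (SLC8A1) and with the threshold of 0.58 (SLC34A2), and 2 without the demand on background (CALB1 and SLC8A1). Among other response genes it was 9 at a threshold of 0.58 and 3 at 1.5 instead of 5, and between 4 and 6 under the remaining alternatives, with FBP1 lost in 8 of 13. Of the P450 genes 2 changed instead of 1 with the mean, with the median, with odd-numbered and with even-numbered probe sets, and 3 with bright probe sets or the threshold of 0.58. Among mitochondrial P450 enzymes it was 2 with bright probe sets (CYP11A1). Among neighbours it was 2 with even-numbered probe sets and 3 at 0.58. Over all genes 920 rose and 292 fell at 0.58, and 269 and 31 at 1.5, against 432 and 87. The cause of these shifts was not tested.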

Other observations

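A few probe sets with no gene name had IDs inside the run of a member's probe sets. The one within CYP27B1 was at 8.76 in HCT116-WT and 8.22 in HCT116-DKO, a difference of -0.54. The pair within CYP2R1 was at 9.41 and 9.09 (-0.32) and at 7.77 and 7.62 (-0.15). None entered the gene levels, and whether they belong to these genes was not tested. The order of IDs was used in place of positions, which were not used here.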
